A study of Mus musculus with 8 samples.

Results

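Transcripts of the transforming growth factor beta (TGF-beta) pathway were examined in p53-knockout mouse bone marrow stem cells carrying a luciferase or a cFos retrovirus. The 10 genes were chosen by symbol, with earlier results of these data known. They comprise the ligands Tgfb1, Tgfb2 and Tgfb3, the latent-ligand binding protein Ltbp1 and the activin subunit Inhba. The others are the receptors Tgfbr1, Tgfbr2 and Tgfbr3, the Smad corepressor Skil and the matrix protein Tgfbi. These 10, of 23500 genes and unnamed transcripts kept from the files, were covered by 14 RefSeq transcripts. All 10 passed the filter on low values (a level of 1 FPKM or more in 4 or more of the 8 libraries), as did 11162 genes in all. FPKM, a count of fragments divided by transcript length and library size, lets levels of different genes be set side by side.

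TGF-beta is secreted in a latent complex in which the mature ligand stays bound to its own propeptide and, through it, to a binding protein such as LTBP1 that anchors it in the matrix. Released ligand joins the type II receptor TGFBR2 to the type I receptor TGFBR1, which phosphorylates SMAD2 and SMAD3. In marrow stromal cells the pathway is known for control of matrix production, of the contractile myofibroblast state and of the choice between cartilage, bone and fat.

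The material was polyadenylated RNA from cultures below passage 20. Both groups shared the p53 knockout and consisted of the same single-cell clones, numbered 2, 4, 8 and 12. The control group (Luc, 4 libraries) was transduced with luciferase, a reporter enzyme, and the other group (cFos, 4 libraries) with cDNA of cFos, a subunit of the AP-1 transcription factor. Each line is 1 clone with 1 library per virus, so the standard deviations below are between clones (n = 4 per group), and no clone was sequenced again with the same virus. Nothing in the labels gives the promoter that drives the cDNA, or the age and strain of the source mice. A name such as Luc 8 stands for the Luc library of clone 8.

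Sequence aligned to transcripts came to 6.93 to 9.14 gigabases per library. Fos was at 41.1 to 302 FPKM in Luc, highest in Luc 8, and at 505 to 1019 in cFos. Of 11 stromal markers 9 passed the filter; the receptor gene Pdgfra was at 27.7 to 149 FPKM and the transcription factor gene Prrx1 at 42.8 to 116, while Thy1 (0.0916 to 23.8) and Nt5e (0.167 to 7.94) fell under 1 FPKM in some libraries and Eng was at 0.258 to 2.12. Among those 9, Cxcl12, a chemokine of marrow stroma, fell from a mean of 3364 to 359 FPKM (limma adjusted p = 0.0154) and the receptor gene Pdgfrb rose from 86.8 to 147 (0.0442). The 11 stromal markers summed to 1928 to 8049 FPKM in Luc, most of it Cxcl12, and to 971 to 1483 in cFos, with no overlap; the part of this difference in the results below was not tested. Other cell types gave little signal. Ptprc, which marks blood cells, reached at most 0.0718 FPKM, and Cdh5, of endothelial cells, was at 0 in all 8 libraries. The 7 blood markers found summed to 1.19 to 2.84 FPKM in Luc and 1.63 to 2.57 in cFos, most of it Cd14 (0.902 to 2.69) and then Csf1r (0.124 to 0.303). The 4 endothelial markers summed to at most 0.391 FPKM, and the 4 epithelial markers to at most 0.374 in Luc and 0.696 in cFos.

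The main comparison asked which of the 10 genes differ between cFos and Luc cells. Tgfb1 and Tgfbi rose, and the other 8 did not pass the test (limma on log2 of FPKM plus 0.5, two-sided, Benjamini-Hochberg adjusted over all 11162 genes, threshold 0.05). The 2 rises stand beside 2.92% of all tested genes called higher. No member was called lower by limma, beside 2.62% of all genes, and at an unadjusted p under 0.05 3 members were higher (Tgfb1, Tgfbi and Ltbp1) and 1 lower (Tgfb3), beside 9.06% and 11.1% of all genes. With the clone as a block in the model, which compares the 2 viruses inside each clone, the same 2 rose and Tgfb3 fell, beside 4.51% of all genes called higher and 4.28% lower. The median log2 fold change was 0.22 over the 10 members and -0.06 over all tested genes. RNA was taken from whole cultures, so fewer cells of a kind and less RNA per cell cannot be told apart in any of these values.

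**Figure D1:**
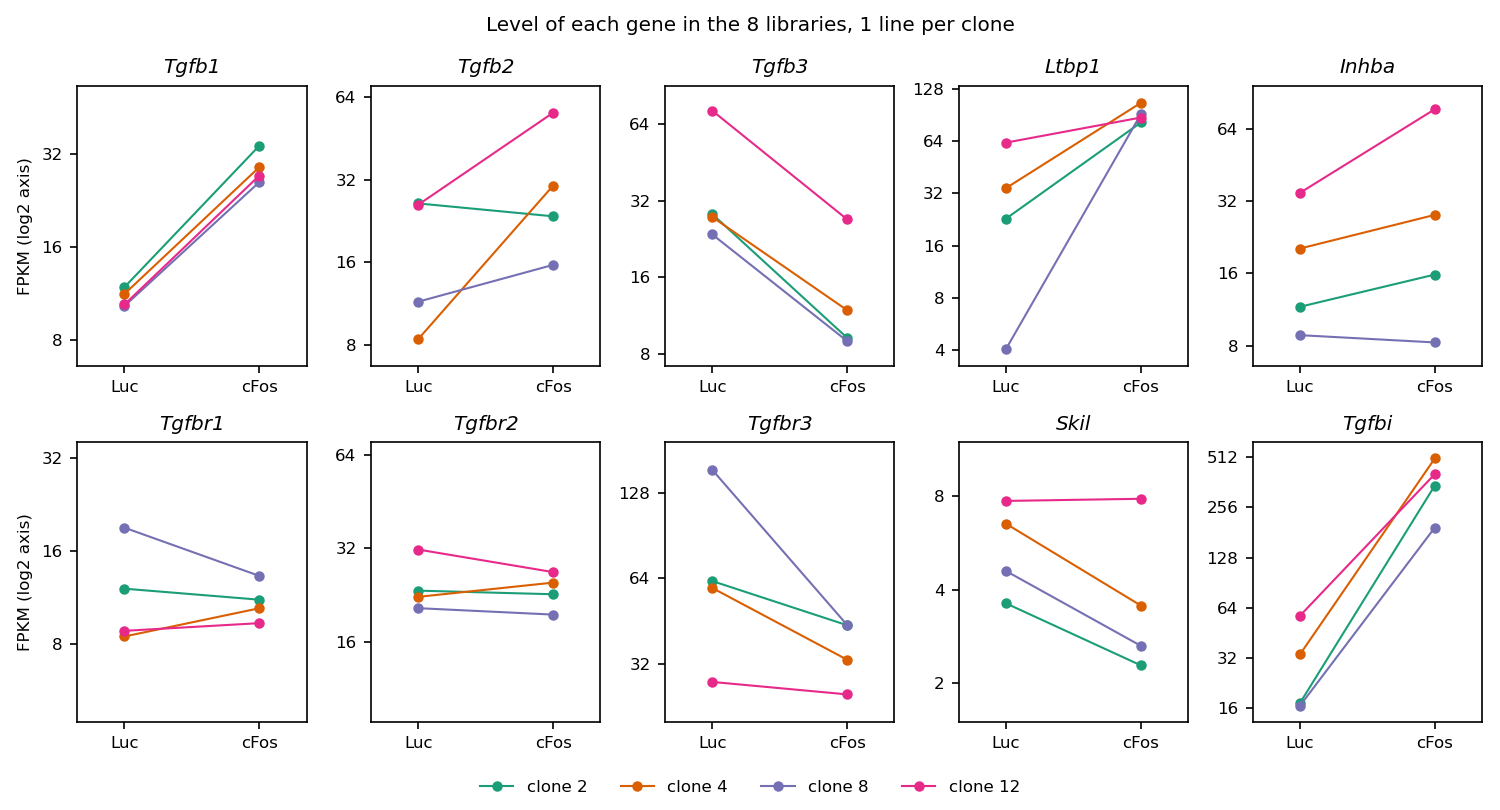
Level of each of the 10 genes (y axis, FPKM on a log2 scale, a separate range per panel of at least 8-fold) in the Luc and cFos libraries (x axis), with 1 line and color per clone. The lines of Tgfb1 run nearly parallel from 10.3 to 11.9 up to 25.9 to 34.0 FPKM, those of Tgfb3 run down in all 4 clones, and Ltbp1 starts from 4.06 to 62.9 FPKM and ends between 82.2 and 107.

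Tgfb1 (NM_011577, chromosome 7, 26472021 to 26490015, mm9) encodes the most widely expressed TGF-beta ligand. Levels with the luciferase virus were 11.9, 11.3, 10.3 and 10.4 FPKM (clones in the order 2, 4, 8, 12, here and below), and with the cFos virus 34.0, 29.0, 25.9 and 27.2. The groups were far apart, and the spread within each was small. Within libraries, the authors' deposited limits reached at most 12.6 FPKM in Luc (Luc 2) and were at least 24.7 in cFos (cFos 8). Tgfb1 rose from 11.0 ± 0.735 to 29.0 ± 3.53 FPKM (SD, n = 4), or 1.36 as a log2 fold change (limma, SE 0.12, adjusted p = 8.46e-04). Clone by clone, the ratio of cFos to Luc was 2.86, 2.57, 2.51 and 2.61, a narrow range. The call held without each of the 8 libraries (adjusted p 0.00239 to 0.00601).

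Tgfb3 (NM_009368, chromosome 12, 87397693 to 87419991), a ligand known for its role in cartilage formation by stromal cells, went the other way in each clone. The Luc libraries held 28.4, 27.6, 23.6 and 72.3 FPKM, against 9.26, 11.9, 8.99 and 27.0 with cFos. Clone 12 was highest in both groups, and cFos 12 lay within the Luc range, so the groups overlapped. Group levels were 38.0 ± 23.0 and 14.3 ± 8.60 FPKM, a log2 difference of -1.37 (limma, SE 0.43, adjusted p = 0.107). The ratio of cFos to Luc was nonetheless similar in the 4 clones, 0.326, 0.430, 0.381 and 0.374. With the clone as a block Tgfb3 fell (SE 0.11, limma adjusted p = 0.00321), and without cFos 12 it also passed with no block (0.0399). Tgfb3 was the 1 member that differed between clones (limma F test of the clone terms, adjusted p = 0.0422), beside 0.484% of all tested genes. The adjusted p of that test rose above the threshold with any library but cFos 8 left out (0.0542 without Luc 8, up to 0.208 without Luc 12), with no filter (0.113) and with a minimum of 5 FPKM (0.0588).

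Tgfb2 (NM_009367, chromosome 1, 188447065 to 188529871) encodes the remaining ligand of the family. Luc libraries held 26.2, 8.44, 11.5 and 25.9 FPKM and cFos libraries 23.5, 30.4, 15.7 and 56.0. The ratio of cFos to Luc was above 1 in clones 4, 8 and 12 (3.61, 1.36 and 2.16) and below it in clone 2 (0.898). The difference did not pass (log2 0.79, 95% interval -0.25 to 1.83, limma adjusted p = 0.381). With the clone as a block the interval was 0.059 to 1.52, and the difference again did not pass (limma adjusted p = 0.164).

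As FPKM is per length, the shares of the ligands in their summed level could be compared. The sum was 67.0 ± 29.4 FPKM in Luc and 74.7 ± 25.3 in cFos (exact two-sided permutation p = 0.514 over the 70 arrangements of 4 against 4). Tgfb3 made up 54.9 ± 10.1% of it in Luc, from 42.7% in Luc 2 to 66.5% in Luc 12, and 18.2 ± 4.52% in cFos, from 13.9% to 24.5%. The share of Tgfb1 was 18.5 ± 6.47% in Luc (9.60% to 23.8%) and 41.9 ± 12.5% in cFos (24.7% to 51.2%). Tgfb2 held 26.6 ± 9.15% and 39.9 ± 8.70%. Thus Tgfb3 was the most abundant ligand transcript in all 4 Luc libraries and the least abundant in cFos 2, cFos 4, cFos 8 and, by a small margin, cFos 12. The exact permutation p was 0.0286 for the shares of Tgfb1 and of Tgfb3, the smallest that 4 against 4 can give, 0.0857 for Tgfb2, and 0.0714, 0.0714 and 0.143 after adjustment over the 5 quantities tested this way. Exchanging the arms only within clones gave 0.125 for Tgfb1, for Tgfb3 and for the ligand sum, again the smallest possible. The sum was higher with cFos in all 4 clones, though barely in clone 2 (66.4 and 66.8 FPKM) and clone 12 (109 and 110). It went from 47.3 to 71.3 FPKM in clone 4 and from 45.4 to 50.6 in clone 8. The shares sum to 100% and so are not independent of each other.

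**Figure D2:**
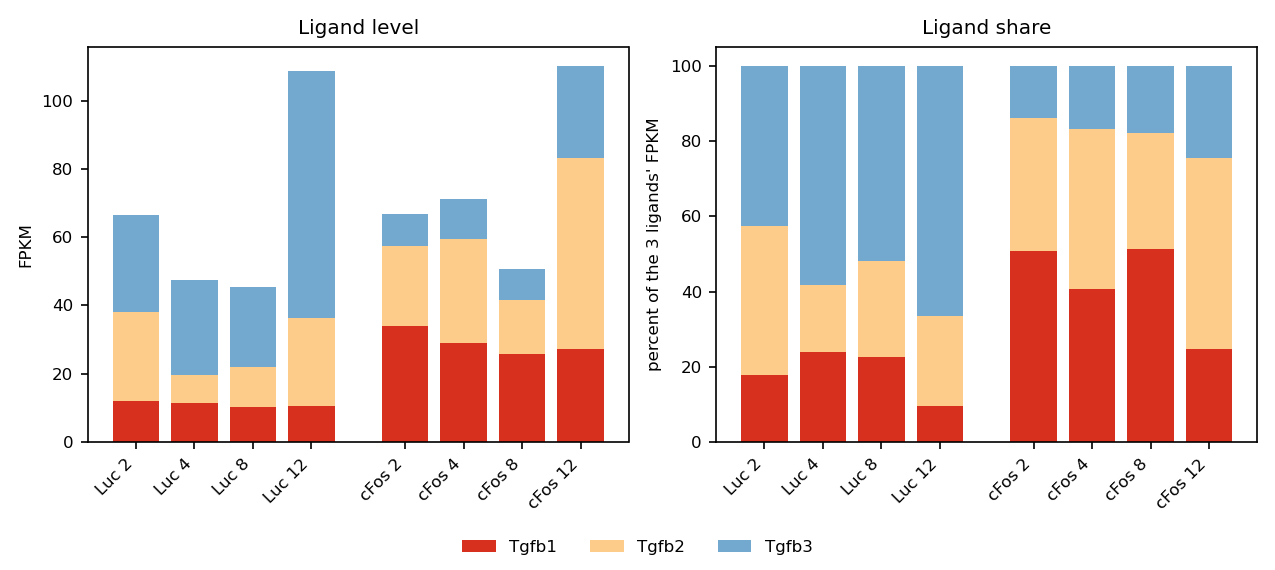
Stacked bars of Tgfb1, Tgfb2 and Tgfb3 in each of the 8 libraries, as FPKM (left) and as percent of the 3 ligands' summed FPKM (right). Tgfb3 takes 42.7% to 66.5% of each Luc bar and 13.9% to 24.5% of each cFos bar, while the bar heights of the groups overlap.

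Ltbp1, which binds latent TGF-beta and tethers it to the matrix, was the member whose increase differed most between clones. Luc libraries held 22.9, 34.4, 4.06 and 62.9 FPKM and cFos libraries 82.2, 107, 91.8 and 87.7. All cFos libraries were above all Luc libraries, and they were much closer to one another than the Luc libraries were. Tgfb1, Tgfbi and Ltbp1 were the 3 members with such a gap, all with cFos above Luc, beside 5.86% of tested genes that lay so. Ratios of cFos to Luc were 3.59, 3.10, 22.6 and 1.40, highest in clone 8. Group levels were 31.1 ± 24.6 and 92.1 ± 10.5 FPKM, and the log2 fold change of 2.06 (SE 0.67) did not pass (limma adjusted p = 0.121, and 0.0748 with the clone as a block). It passed without Luc 8 (1.31, adjusted p = 0.0468) and without Luc 12 (2.57, 0.0491). Luc 8 also had the highest Fos level of its group, and whether that bears on Ltbp1 was not tested.

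Ltbp1 is listed with transcripts from separate starts, which encode a long and a short form of the protein. The transcript from the upstream start (NM_019919, chromosome 17, 75404869 to 75792307, mm9) held 1.86, 1.48, 0.229 and 5.93 FPKM with luciferase against 10.6, 10.6, 18.3 and 6.08 with cFos. The transcript from the downstream start (NM_206958, 75578150 to 75792307) held 21.1, 32.9, 3.83 and 56.9 against 71.6, 96.0, 73.5 and 81.6. Each of them was higher with cFos in every clone, although in clone 12 the cFos value of the upstream transcript lay inside the authors' deposited limits for Luc (5.48 to 6.38), and the downstream start gave most of the transcripts everywhere. The upstream form was 6.88 ± 2.33% of Ltbp1 FPKM in Luc and 12.4 ± 5.55% in cFos, with overlapping ranges (4.30% to 9.43% and 6.93% to 19.9%). Most of their length is shared, so the split rests on the authors' model of the reads.

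**Figure D3:**
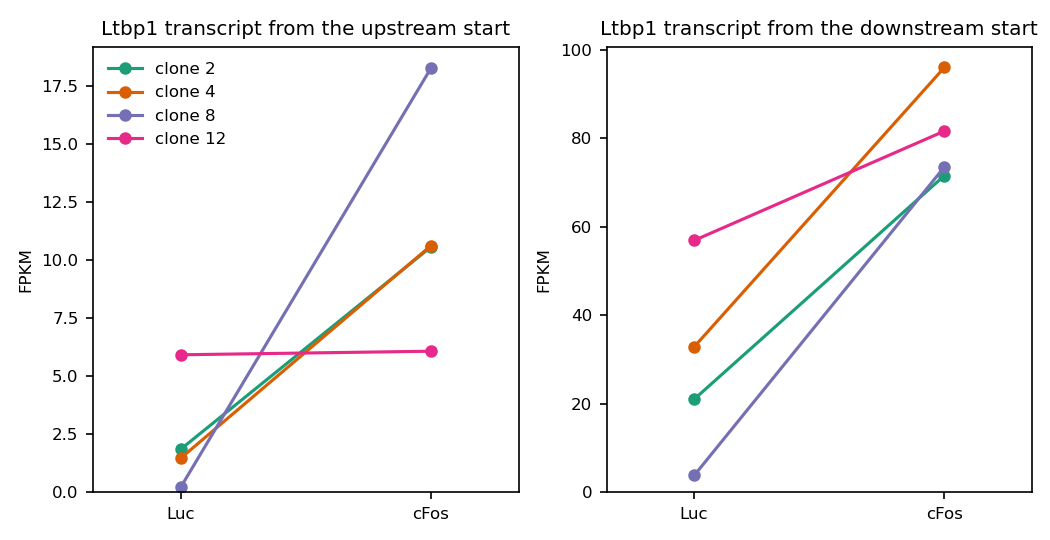
FPKM of the Ltbp1 transcript from the upstream start (left) and from the downstream start (right) in Luc and cFos libraries, 1 line per clone, with separate y axes from 0. The upstream transcript ranges from 0.229 to 18.3 FPKM and the downstream one from 3.83 to 96.0; clone 8 is lowest in Luc in both panels, and clone 12 changes least.

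Promoter sequences are shown for both Ltbp1 starts, whose transcripts differ in level, and for Tgfb1 and Tgfbi, the members that rose. They are from RefSeq (GRCm38.p6), cover the 250 bases before the start and read 5′ to 3′ on the gene's strand; all 4 lie on the plus strand. Both Ltbp1 starts lie 173252 bases apart there and 173281 apart in the mm9 positions above. The windows may therefore not end exactly at the starts of the transcripts measured. Letters of the AP-1 motif TGANTCA, the cyclic AMP response element TGACGTCA and the Smad motif GTCTAGAC were searched on both strands, and matches are in capitals.
Ltbp1 upstream start, chr17:75005279-75005528: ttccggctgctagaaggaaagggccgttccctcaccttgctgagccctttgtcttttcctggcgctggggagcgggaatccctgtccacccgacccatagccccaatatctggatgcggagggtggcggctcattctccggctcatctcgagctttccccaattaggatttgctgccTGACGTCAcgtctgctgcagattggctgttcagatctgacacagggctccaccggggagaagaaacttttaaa
Ltbp1 downstream start, chr17:75178531-75178780: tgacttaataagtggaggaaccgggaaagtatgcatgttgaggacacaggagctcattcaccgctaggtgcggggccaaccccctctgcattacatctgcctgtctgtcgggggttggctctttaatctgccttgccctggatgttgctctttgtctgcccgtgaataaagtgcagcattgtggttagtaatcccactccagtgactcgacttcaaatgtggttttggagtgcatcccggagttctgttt
Tgfb1, chr7:25686752-25687001: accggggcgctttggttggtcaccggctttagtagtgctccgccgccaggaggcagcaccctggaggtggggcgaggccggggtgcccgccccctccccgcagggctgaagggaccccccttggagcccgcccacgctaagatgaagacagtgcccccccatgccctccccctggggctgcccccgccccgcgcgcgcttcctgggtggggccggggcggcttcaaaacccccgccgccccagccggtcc
Tgfbi, chr13:56609336-56609585: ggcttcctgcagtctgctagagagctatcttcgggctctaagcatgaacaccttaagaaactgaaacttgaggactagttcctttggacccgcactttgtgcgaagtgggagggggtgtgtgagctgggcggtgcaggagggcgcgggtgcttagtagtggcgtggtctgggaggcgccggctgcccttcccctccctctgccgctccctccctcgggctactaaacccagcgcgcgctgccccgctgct
The 1 match, TGACGTCA, began 73 bases before the upstream start of Ltbp1 as RefSeq (GRCm38.p6) places it. Promoter sequence was found for 7 of the 10 members, 9 windows in all, and this was the only match to the 3 motifs among them. Shorter or partial forms of the motifs were not searched. Of 32851 mouse windows of the same length, 6.75% held TGANTCA, 1.55% TGACGTCA and 0.167% GTCTAGAC. The Tgfb1 window was 75.2% G and C and the Tgfbi window 62.4%.

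Tgfbi (NM_009369, chromosome 13, 56710964 to 56740700), a secreted matrix protein named for its induction by TGF-beta, had the highest fold change of the 10 members. Luc libraries held 17.2, 33.7, 16.6 and 57.4 FPKM and cFos libraries 346, 503, 194 and 405. The lowest cFos library was well above the highest Luc library. Tgfbi rose from 31.2 ± 19.2 to 362 ± 129 FPKM, or 3.62 as a log2 fold change (limma, SE 0.43, adjusted p = 0.00275). Ratios of cFos to Luc were 20.1, 14.9, 11.7 and 7.06, lowest in clone 12. Without single libraries the adjusted p was 0.00148 to 0.0144. In mean level it stood behind Tgfbr3 and Tgfb3 in Luc and above all other members in cFos.

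**Figure D4:**
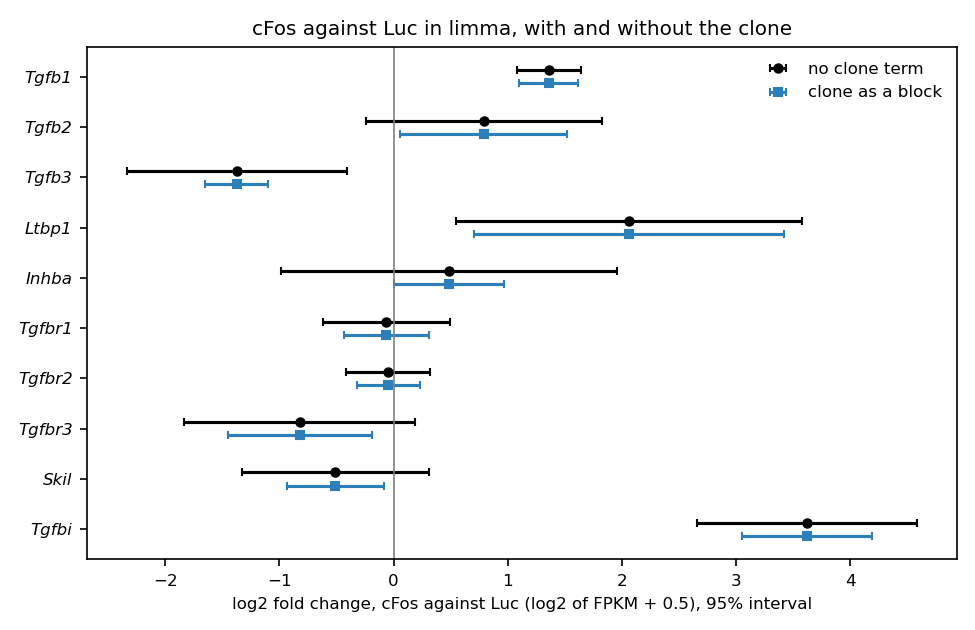
Log2 fold change of cFos against Luc (x axis, on log2 of FPKM plus 0.5) for the 10 members, with 95% intervals from limma without a clone term (black) and with the clone as a block (blue). The intervals of Tgfb1 (1.36), Tgfbi (3.62), Ltbp1 (2.06) and Tgfb3 (-1.37) lie clear of 0 in both fits. Ltbp1 in both fits, and Tgfb3 without the block, did not pass after adjustment. The interval of Tgfb3 narrows from -2.34 to -0.41 without the block to -1.65 to -1.10 with it.

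The signalling receptors differed little between the groups. Tgfbr1, the type I receptor kinase (NM_009370, chromosome 4, 47366177 to 47427796), had 12.1, 8.49, 19.1 and 8.85 FPKM in the Luc libraries and 11.2, 10.5, 13.3 and 9.37 in the cFos libraries. Tgfbr2, the type II receptor (chromosome 9, 115996813 to 116084481), had 23.4, 22.3, 20.5 and 31.7 against 22.8, 24.8, 19.6 and 26.8. For both, 2 or more clones were lower and at least 1 was higher in cFos. Neither passed, with log2 fold changes of -0.06 (95% interval -0.62 to 0.50, limma adjusted p = 0.920) and -0.05 (-0.42 to 0.32, 0.904); the sign of each turned when libraries were scaled to a common median (0.00061 and 0.016). The Tgfbr1 to Tgfbr2 ratio was 0.526 ± 0.285 in Luc and 0.485 ± 0.142 in cFos, and the mean log2 ratio differed by -0.01 (exact two-sided permutation p = 1). Luc 8 had the highest ratio, 0.929, and Luc 12 the lowest, 0.279, and clones 8 and 12 were also highest and lowest in cFos (0.681 and 0.349).

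Tgfbr3 encodes betaglycan, a co-receptor that presents ligand and binds TGF-beta2 tightly (NM_011578, chromosome 5, 107535589 to 107718614). It had the highest mean level of the members in Luc, at 62.6, 59.2, 154 and 27.6 FPKM, against 43.8, 33.1, 43.9 and 25.0 in cFos. The level was lower in cFos in all 4 clones, at ratios of 0.699, 0.559, 0.285 and 0.904, but the groups overlapped. The difference did not pass (75.9 ± 54.5 and 36.4 ± 9.15 FPKM, log2 -0.82, 95% interval -1.83 to 0.19, limma adjusted p = 0.349, and 0.110 with the clone as a block, interval -1.45 to -0.19). Without Luc 8, which held the highest value, the log2 difference was -0.39 (adjusted p = 0.517). Counting Tgfb1, Tgfbi and Ltbp1 (higher) and Tgfb3 and Tgfbr3 (lower), 5 of the 10 members had the same direction in all 4 clones, beside 36.2% of tested genes.

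Inhba, the subunit that forms activin A, a ligand that signals through the same Smads (NM_008380, chromosome 13, 16106308 to 16119044), varied more between clones than between viruses. Levels were 11.6, 20.3, 8.84 and 34.7 FPKM with luciferase and 15.8, 28.1, 8.24 and 77.4 with cFos. The order of the clones, 12, 4, 2 and 8 from high to low, was the same in both groups. Its clone differences missed the threshold (limma F test, adjusted p = 0.0544), and the virus difference did not pass (18.9 ± 11.6 and 32.4 ± 31.1 FPKM, log2 0.48, 95% interval -0.99 to 1.96, adjusted p = 0.733). Without cFos 12 the log2 difference was -0.087. With all libraries and the clone as a block the interval was -0.00016 to 0.97 (limma adjusted p = 0.193).

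Skil, a corepressor of Smad complexes whose gene TGF-beta induces (chromosome 3, 30993980 to 31021845), had the lowest mean level of the members in both groups. Luc libraries held 3.61, 6.52, 4.59 and 7.73 FPKM and cFos libraries 2.28, 3.55, 2.63 and 7.85. It was lower with cFos in clones 2, 4 and 8, at ratios of 0.631, 0.544 and 0.573, and at a ratio of 1.02 in clone 12. Over the 4 clones the levels were 5.61 ± 1.86 and 4.08 ± 2.57 FPKM. The difference did not pass (log2 -0.51, 95% interval -1.33 to 0.31, limma adjusted p = 0.482). With the clone as a block the interval was -0.93 to -0.088, and the difference again did not pass (limma adjusted p = 0.131).

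Ranked by mean level, Luc cells had Tgfbr3 (75.9 FPKM), Tgfb3 (38.0), Tgfbi (31.2), Ltbp1 (31.1), Tgfbr2 (24.5), Inhba (18.9), Tgfb2 (18.0), Tgfbr1 (12.1), Tgfb1 (11.0) and Skil (5.61). In cFos the order was Tgfbi (362), Ltbp1 (92.1), Tgfbr3 (36.4), Inhba (32.4), Tgfb2 (31.4), Tgfb1 (29.0), Tgfbr2 (23.5), Tgfb3 (14.3), Tgfbr1 (11.1) and Skil (4.08). All neighbours in the Luc order down to Tgfb1 differed by less than the larger of their SDs, and so did Tgfbr3, Inhba, Tgfb2 and Tgfb1, and Tgfb3 and Tgfbr1, in the cFos order. The steps in cFos from Tgfbi to Ltbp1 and from Ltbp1 to Tgfbr3 exceeded both SDs.

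The rest of the pathway was followed in a list of 53 genes by role, of which 52 were found in the files and 45 passed the filter. In cFos, 1 rose, 5 fell and 39 did not pass, with a median log2 fold change of -0.13, where 2.92% of all tested genes rose and 2.62% fell. The rise was that of a target, and the falls were 2 genes of latency and activation, 1 inhibitor and 2 targets. Numbers with the clone block were 3 and 5, beside 4.51% and 4.28% of all genes. Several of these genes have other strong regulators, and their places in the list rest on textbook roles.

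Among genes that hold or release latent ligand, 2 of 8 tested fell and none rose by limma (0 higher and 3 lower at an unadjusted p under 0.05). Of all tested genes 2.62% were called lower, and 11.1% were lower at the unadjusted p. Thbs1, thrombospondin-1, which can activate latent TGF-beta, had 1472, 1850, 1289 and 1713 FPKM in the Luc libraries and 249.8, 823, 356 and 812 in the cFos libraries. Every cFos library was below every Luc library, a pattern whose share over all tested genes was not counted. Thbs1 fell by 1.66 on the log2 scale (SE 0.38, log2 fold change -1.66, limma adjusted p = 0.0376). Its call ended without any library but cFos 4 or cFos 12 (up to 0.0994), without clone 8 (0.111) and with no filter on low genes (0.0946). Fbn1, fibrillin-1, the microfibril protein to which latent complexes attach, went down from 73.9 ± 27.4 to 24.1 ± 9.31 FPKM (-1.59 on the log2 scale, adjusted p = 0.0210). It lost its call when Luc 2 or the cFos library of clone 2, 4 or 8 was left out (up to 0.0722), without clone 8 (0.0780) and with no filter (0.0536).

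Intracellular transducers showed no call by limma: none of 5 Smads and partners, with none at an unadjusted p under 0.05 either. Of all tested genes 2.92% were called higher and 2.62% lower, and 9.06% and 11.1% were so at the unadjusted p. At such shares, the absence of a call among so few genes is not a result about them. Smad3 was at 17.6 ± 3.25 and 19.3 ± 2.95 FPKM in Luc and cFos (log2 0.14, adjusted p = 0.697), and Zfyve9, the anchor that brings Smads to the receptor, at 8.20 ± 1.49 and 10.6 ± 1.78 (0.36, adjusted p = 0.309). The same held for 5 activin genes and 2 co-receptors, with no call and none at an unadjusted p under 0.05, beside the same shares. Fst, the activin antagonist follistatin, was at 6.98 ± 4.55 and 2.38 ± 0.895 (-1.05, adjusted p = 0.374, and 0.0163 without Luc 4), and the activin receptor gene Acvr1b at 3.99 ± 1.76 and 2.38 ± 0.752 (-0.60, 0.291). Bambi, a decoy receptor, was at 1.69 ± 0.706 and 1.16 ± 0.600, and Eng, endoglin, at 0.729 ± 0.528 and 1.12 ± 0.749.

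Of 8 inhibitors 1 fell and none rose by limma, beside 2.62% of all tested genes called lower and 2.92% higher. At an unadjusted p under 0.05, 2 were higher and 1 lower, beside 9.06% and 11.1% of all genes. Smurf2, a ubiquitin ligase that marks receptors and Smads for breakdown, was at 26.0, 24.6, 25.2 and 21.8 FPKM in Luc and 14.6, 16.1, 14.1 and 18.9 in cFos, with no overlap. As for Thbs1, the share of all tested genes that lay so, with cFos below Luc, was not counted. Smurf2 fell by 0.61 on the log2 scale (SE 0.13, log2 fold change -0.61, limma adjusted p = 0.0294). The call sat close to the threshold: it ended with the clone as a block (0.0501), without clone 8 (0.108) and without any library but Luc 12 or cFos 12 (up to 0.0990).

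Transcripts that TGF-beta is known to induce included calls in both directions: of 17 tested, 1 rose, 2 fell and 14 did not pass, with a median log2 fold change of -0.19, beside 2.92% of all genes called higher and 2.62% lower. At an unadjusted p under 0.05, 3 were higher (Klf10, Col3a1 and Cdkn1a) and 4 lower (Tagln, Acta2, Ccn2 and Snai2). Beside these stand 9.06% and 11.1% of all genes. Klf10, an early-response transcription factor, rose from 11.8 ± 2.05 to 22.0 ± 2.51 FPKM (log2 fold change 0.88, limma adjusted p = 0.0138), with no call without cFos 2 (0.0558) or clone 8 (0.0551). The contractile genes Tagln and Acta2, transgelin and smooth muscle actin, fell, with log2 fold changes of -2.67 and -2.30 (adjusted p = 0.0049 and 0.0269). Acta2 lost its call without Luc 2, Luc 4, Luc 12, cFos 2 or cFos 4 (up to 0.0810), without clone 8 (0.0531) and with no filter (0.0713).

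**Figure D5:**
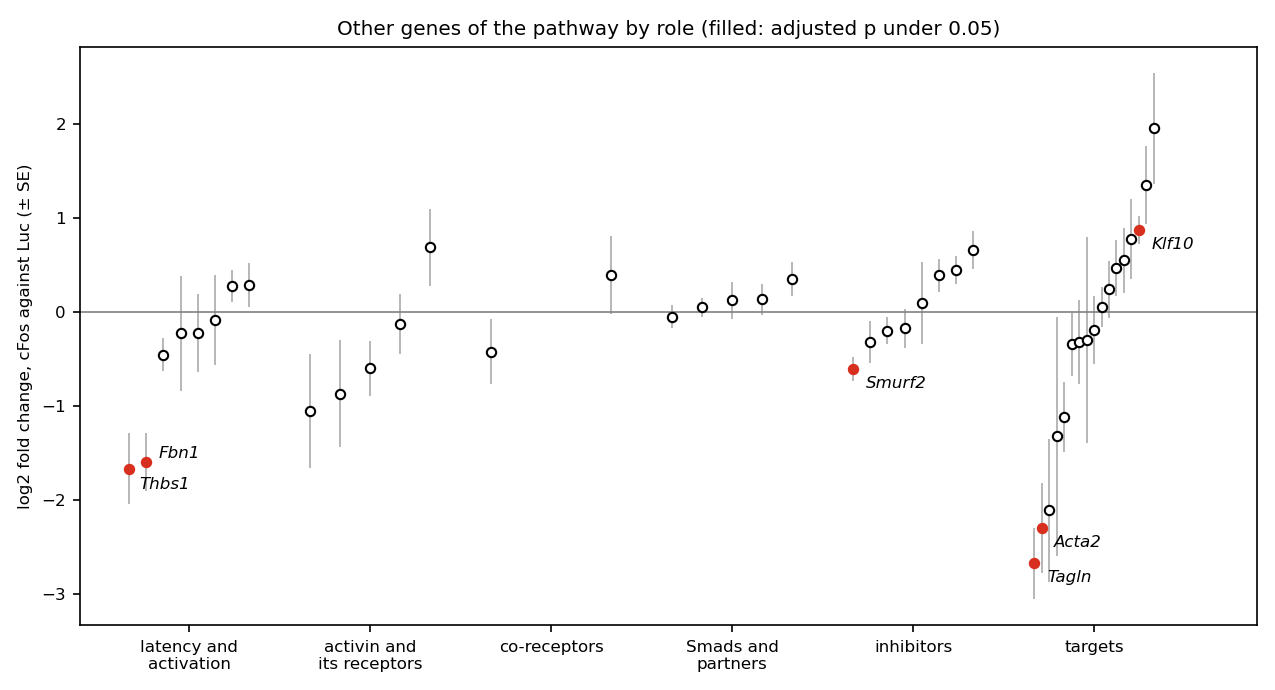
Log2 fold change of cFos against Luc (y axis, ± SE from limma) for the 45 tested genes of the pathway list, grouped by role along the x axis and sorted within a role; filled red points have an adjusted p under 0.05 and are named. The rise of Klf10 and the falls of Tagln and Acta2 lie in the target group, and the points of the Smads and their partners lie near 0.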

How the data were processed

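Polyadenylated RNA of 8 libraries was sequenced; per the labels' protocols, RNA came from a column kit and libraries from Illumina TruSeq. The build is mm9 and the tools CASAVA 1.8.2, TopHat and Cufflinks, per the submitters' processing notes, which name no options or other versions. The deposited values are, per the file headers, the authors' FPKM per RefSeq transcript with limits, and coverage, a signal of mean depth per base used here for depth alone. Cufflinks values are model estimates, so transcripts of 1 gene can trade reads; the files hold no read counts.

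Of 30769 entries, 30227 were named from RefSeq and 180 from GENCODE, and 362 without a name kept their transcript identifier. FPKM was summed per symbol or identifier, and 3 genes with a failed status were left out, which left the 23500 counted. Starts are given counted from 1. limma 3.58.1 (R 4.3.3) was fitted with a mean-variance trend to log2 of FPKM plus a pseudocount of 0.5. The code was also run on simulated data, checking the signs of called changes and, with the clone block, recovery of the larger ones. That check set no limit on false calls. The main model had no clone term. Clone numbers pair libraries of the same line; their deviations from group means correlated by 0.174, 0.593, 0.349 and 0.437 in clones 2, 4, 8 and 12. Shares and the receptor ratio had exact permutation tests.

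The members and gene lists were chosen with earlier results of these data known. Named are all members and, per role, the list genes past the threshold or else up to 2 with the smallest adjusted p; any others were chosen after their values were seen. A further gene of the target list is not reported here. Alternatives were pseudocounts of 0.1 and 1, no filter or a minimum of 5 FPKM, median or upper quartile scaling, the most abundant transcript only, no trend, the clone as a block, and leaving out each library or clone 8. Tables and plots were made in Python 3.11.15 (pandas 2.3.3; matplotlib 3.10.9).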

Additional observations from a re-analysis of the deposited data

Results flagged for a closer look

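Within each group of 4 libraries, the most extreme value of each member was held against Dixon's 95% limit for the gap to the nearest library over the whole range. Chance passes that limit in about 1 of 20 groups if values are normally distributed. The members were taken as FPKM without logs, and their distribution was not tested. Of 20 such sets, and 4 more of the Tgfb1 share and the receptor ratio, those that stood out were Tgfb3 in Luc and Tgfb3 in cFos. The value of Luc 12, 72.3 FPKM, had a gap of 0.902 of the range, and that of cFos 12, 27.0 FPKM, a gap of 0.840. Both are libraries of clone 12.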

How the results depend on the processing

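The 2 rises among the members, Tgfb1 and Tgfbi, passed in all 18 alternatives run, and the number of members called higher was 2 to 3 when 1 library was left out. The number called lower was 1 with the clone as a block and 0 to 1 without 1 library. Of the other pathway genes, 3 rose with the clone as a block and 0 to 2 without 1 library (0 without cFos 2 and 2 without Luc 8); 2 fell with no filter, 1 without clone 8 and 1 to 5 without 1 library (1 without Luc 2 or cFos 2, 2 without cFos 4 or cFos 8, and 3 without Luc 4, Luc 8 or Luc 12). How many of all tested genes passed with no filter, without clone 8 or without 1 library was not counted. A loss of calls over all genes therefore cannot be told apart from a loss in this list. The cause of these losses was not tested. Members differing between clones numbered 0 with no filter or a minimum of 5 FPKM and 0 to 2 without 1 library. The difference in the Tgfb1 share was 23.4 percentage points (exact permutation p = 0.125 with the pairing of clones) and 20.2 to 29.1 without 1 library; that in the log2 receptor ratio was -0.27 to 0.31. Differences near 0 changed sign: Tgfbr1 was at 0.00061 under median scaling, 0.084 without clone 8 and -0.20 to 0.17 without 1 library; Tgfbr2 at 0.016 under median scaling, 0.16 with the most abundant transcript only and -0.12 to 0.081 without 1 library; and Inhba at -0.087 to 0.97 without 1 library. Among the members and the pathway genes named, the clone block changed the calls of Tgfb3, Smurf2, Cdkn1a, Tgif1 and Snai2 and no other call. Cell type markers such as Pdgfrb and the genes most like Tgfb1 and Tgfbi were not compared in this way. Over all 11162 genes, 326 rose and 293 fell without the block and 503 and 478 with it. The files hold no read counts, so counting error of low values such as those of Skil is not known.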

Other observations

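With the clone as a block, 3 further genes of the pathway list passed (chosen after their values were seen). Cdkn1a, the cell cycle inhibitor p21, which p53 and TGF-beta both induce, had 2.55, 1.06, 0.312 and 3.89 FPKM in the Luc libraries of clones 2, 4, 8 and 12, and 10.2, 5.27, 3.36 and 15.5 in their cFos libraries. It was higher in every clone while the groups overlapped (log2 fold change 1.96, limma adjusted p = 0.0955, and 0.00228 with the block). Tgif1, a repressor of Smad targets, was at 35.9 ± 9.33 and 56.4 ± 9.59 FPKM (0.0187 with the block), and Snai2, a transcription factor of mesenchymal cells, at 103.7 ± 62.5 and 42.8 ± 10.7 (0.0243). Without the block neither passed (0.107 and 0.131).

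Other members listed with several transcripts were Tgfbr2 and Skil. Tgfbr2 is listed as NM_029575 and NM_009371 over the same interval. The share of NM_009371 was 41.5%, 40.5%, 62.7% and 45.1% in Luc (clones 2, 4, 8, 12) and 43.5%, 32.8%, 54.3% and 26.1% in cFos, highest in clone 8 in both groups. Of the Skil transcripts, NM_001039090 held 44.8% to 76.5% of the FPKM, with clone 8 highest in Luc and lowest in cFos, and NM_001271772 at most 3.28%. These forms overlap almost fully, so the splits are model estimates.

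Over the 8 libraries, the tested genes whose log2 levels were most like those of Tgfb1 were Slc37a2 (Pearson r = 0.991), Ugcg (0.989), Atp6v0d2 (0.989), Ano1 (0.989) and Dlg2 (0.986). For Tgfbi they were Dpt (0.989), Eps8 (0.987), Adgrg2 (0.985), Prex2 (0.983) and Osbp2 (0.982). All 10 were higher in cFos, which follows from their choice by likeness to Tgfb1 and Tgfbi. Atp6v0d2, Ano1, Dlg2, Dpt, Prex2 and Osbp2 had Luc means of 0.108, 0.0823, 0.187, 0.361, 0.388 and 0.202 FPKM. Those genes passed the filter on low values through their cFos libraries. The correlations, over 8 points that fall into 2 virus groups, are given as a description alone. Slc37a2, a sugar phosphate transporter gene, went from 1.30 ± 0.547 to 23.1 ± 5.16 FPKM, and Dpt, the matrix protein dermatopontin, from 0.361 ± 0.403 to 10.3 ± 5.27.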
